A study of Mus musculus with 9 samples.

Results

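Metallothioneins and the enzymes of the oxidative stress response were followed as 9 genes, found by symbol among the 32286 features of the count table. They were Mt1, Mt2, Hmox1, Slc7a11, Gclc, Gclm, Txnrd1, Srxn1 and Nqo1. The data came from 5′ single-cell RNA libraries of whole, dissociated primary tumours that the mammary tumour line 168FARN formed in the mammary fat pad of female BALB/c mice. There were 3 WT tumours, 3 tumours of cells deficient in Kmt2c (Kmt2c KO) and 3 of cells deficient in Kmt2d (Kmt2d KO), genes for related histone H3 lysine 4 methyltransferases that act at enhancers. The knockouts were made with pooled guides and transient Cas9 in the tumour cells only, so that the stroma of every tumour was that of an unedited host. Each line was a sorted pool injected into several mice, and the tumours of a group therefore replicate the mouse and not the knockout. All lines carried H2BMc, a nuclear H2B–mCherry reporter. The group of a library was read from its genotype letter in the files, X being taken as WT, and libraries were numbered 1 to 3 within a group only as names.

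Metallothioneins are small, cysteine-rich proteins that bind zinc and copper and scavenge radicals, and their genes are switched on by the metal-sensing factor MTF1, by glucocorticoids and by low oxygen. The other genes are classic targets of NRF2 (gene Nfe2l2), a factor that KEAP1 holds back until oxidants or electrophiles release it, and Hmox1 is also held down by BACH1 and raised by heme. In solid tumours such genes mark cells under metal, heme, oxidant or oxygen stress, and glutathione and thioredoxin are the main thiol systems that they feed.

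The counts were read in 3 settings. The cell filters left 58645 cells, of which 16707 with at least 1 H2BMc UMI (unique molecular identifier) were taken as tumour cells. Within each library the 15% of tumour cells with the highest hypoxia score, the summed UMIs of Slc2a1, Bnip3, Ndrg1 and Ero1l per 10000 UMIs, were called hypoxic (2502 cells), and none of the 9 genes is in that score. Cells without H2BMc or keratin UMIs were put in stromal classes by fixed markers, which gave 703 macrophage-like, 419 endothelial-like, 292 T and NK-like and 180 dendritic-like cells, and 2501 cells with fibroblast markers. Counts were summed per library and set of cells, since cells are not replicates. A level is given in CPM, the UMIs of a gene per 1000000 UMIs of those cells, and it is compared between cells for the same gene but not between genes.

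Several features of the libraries bear on every value. WT libraries held 361 to 925 tumour cells each, against 1851 to 3434 in the knockouts, and 26.6% to 68.5% of WT barcodes were lost to the limit on mitochondrial counts, against 13.0% to 29.5%. Median depth per tumour cell was 13729 to 24081 UMIs in WT libraries and 8661 to 14789 in the knockouts, and tumour-cell sums held 9779795 to 47951145 UMIs. In tumour cells Krt8 was at 550 to 569 CPM in WT, 235 to 339 in Kmt2c KO and 304 to 466 in Kmt2d KO, and the reporter H2BMc at 72.7 to 113, 142 to 153 and 90.6 to 117. Krt8 thus lay lower and H2BMc higher in every Kmt2c KO library than in every WT library, and the part of this in the differences below was not tested. Krt18, the other keratin on the marker list, was at 0.459 or below. The transcripts of the deleted genes check neither label, because small Cas9 edits need not lower mRNA: Kmt2c was at 48.1 to 49.1 CPM in WT and 42.0 to 57.6 in Kmt2c KO tumour cells, and Kmt2d at 14.9 to 21.4 in WT and 24.3 to 31.9 in Kmt2d KO tumour cells. Over all genes, Kmt2d KO library 2 differed more from libraries 1 and 3 of its group (chi-square of tumour-cell counts per degree of freedom 59.2 and 77.3) than these did from each other (11.4), so the metallothionein fold changes of Kmt2d KO and its comparison with Kmt2c KO are given with and without it. No pair of libraries within a group agreed within sampling noise, the lowest value being 4.18. In all, 4365 barcode sequences occurred in more than 1 library, 5.16% of the sequences.

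The promoters of Mt1, Mt2, Gclm and Srxn1 are shown because the metallothioneins rose in the same comparisons of tumour cells, while Gclm and Srxn1 are NRF2 targets that differed little. Sequences are from RefSeq on build GRCm38.p6, 300 bases around a start site, 5′ to 3′ on the gene's strand. Of the 9 genes, 7 had an entry, and Hmox1 and Gclc had none. Capitals mark the metal response element core (TGCACNC or TGCGCNC) in Mt1 and Mt2 and the antioxidant response element (TGACNNNGC) in Gclm and Srxn1, each searched on both strands.
Mt1, chr8:94178839-94179138, plus strand: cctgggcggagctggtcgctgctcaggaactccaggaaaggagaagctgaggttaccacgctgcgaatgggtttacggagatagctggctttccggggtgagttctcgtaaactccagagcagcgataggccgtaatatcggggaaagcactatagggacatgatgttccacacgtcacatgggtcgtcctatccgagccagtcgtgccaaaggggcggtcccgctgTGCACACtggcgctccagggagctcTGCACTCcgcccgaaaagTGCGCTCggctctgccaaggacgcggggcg
Mt2, chr8:94172368-94172667, plus strand: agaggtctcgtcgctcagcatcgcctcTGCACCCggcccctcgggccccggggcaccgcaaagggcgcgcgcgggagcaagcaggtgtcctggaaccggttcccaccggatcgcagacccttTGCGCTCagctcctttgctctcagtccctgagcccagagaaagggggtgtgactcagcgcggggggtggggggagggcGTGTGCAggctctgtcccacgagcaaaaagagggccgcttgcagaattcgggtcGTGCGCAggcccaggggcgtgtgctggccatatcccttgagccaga
Gclm, chr3:122245307-122245606, plus strand: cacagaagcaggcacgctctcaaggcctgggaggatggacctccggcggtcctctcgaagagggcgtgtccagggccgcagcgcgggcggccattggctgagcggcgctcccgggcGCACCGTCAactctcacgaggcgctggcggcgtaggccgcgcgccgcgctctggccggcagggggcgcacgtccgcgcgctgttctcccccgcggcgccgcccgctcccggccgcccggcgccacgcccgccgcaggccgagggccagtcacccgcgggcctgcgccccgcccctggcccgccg
Srxn1, chr2:152105274-152105573, plus strand: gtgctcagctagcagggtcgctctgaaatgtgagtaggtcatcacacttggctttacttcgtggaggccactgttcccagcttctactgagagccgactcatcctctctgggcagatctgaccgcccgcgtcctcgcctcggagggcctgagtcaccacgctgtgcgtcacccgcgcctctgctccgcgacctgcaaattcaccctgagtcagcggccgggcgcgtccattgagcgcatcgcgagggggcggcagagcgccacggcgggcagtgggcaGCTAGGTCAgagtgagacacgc
The Mt1 window held 3 metal cores and the Mt2 window 4, and 25.7% of all 32851 promoter windows of this length held at least 1. The antioxidant element was found once each in Mt2, Gclm and Srxn1 and in 1 of 3 windows of Txnrd1, against 12.4% of all windows. Gclm also held 3 metal cores and Srxn1 held 1. The hypoxia response element core, ACGTG, was found once each in Mt1 and Gclm, against 19.6% of all windows. The windows of Slc7a11 and Nqo1 held none of these letters. A match is a description of the sequence only.

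In tumour cells, Mt1, Mt2, Hmox1 and Slc7a11 were higher in Kmt2c KO than in WT tumours, by 1.61 to 2.69 on the log2 scale, and the other 5 genes did not pass the test. That is 4 of 9 genes called higher by edgeR at an adjusted p below 0.05, and 9.57% of the 14089 genes tested were called higher (18.7% in either direction). The median log2 fold change was 0.58 over the 9 genes and -0.00 over all genes. For 5 of the 9 genes every Kmt2c KO library was above every WT library, and so it was for 20.8% of all genes tested. For Kmt2d KO against WT and against Kmt2c KO, the share of all genes without overlap was not counted. Groups said below not to overlap are thus a description of levels only. In Kmt2d KO tumours none of the 9 was called against WT, where 2.27% of all genes were, and both knockouts were set against the same 3 WT libraries.

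**Figure D1:**
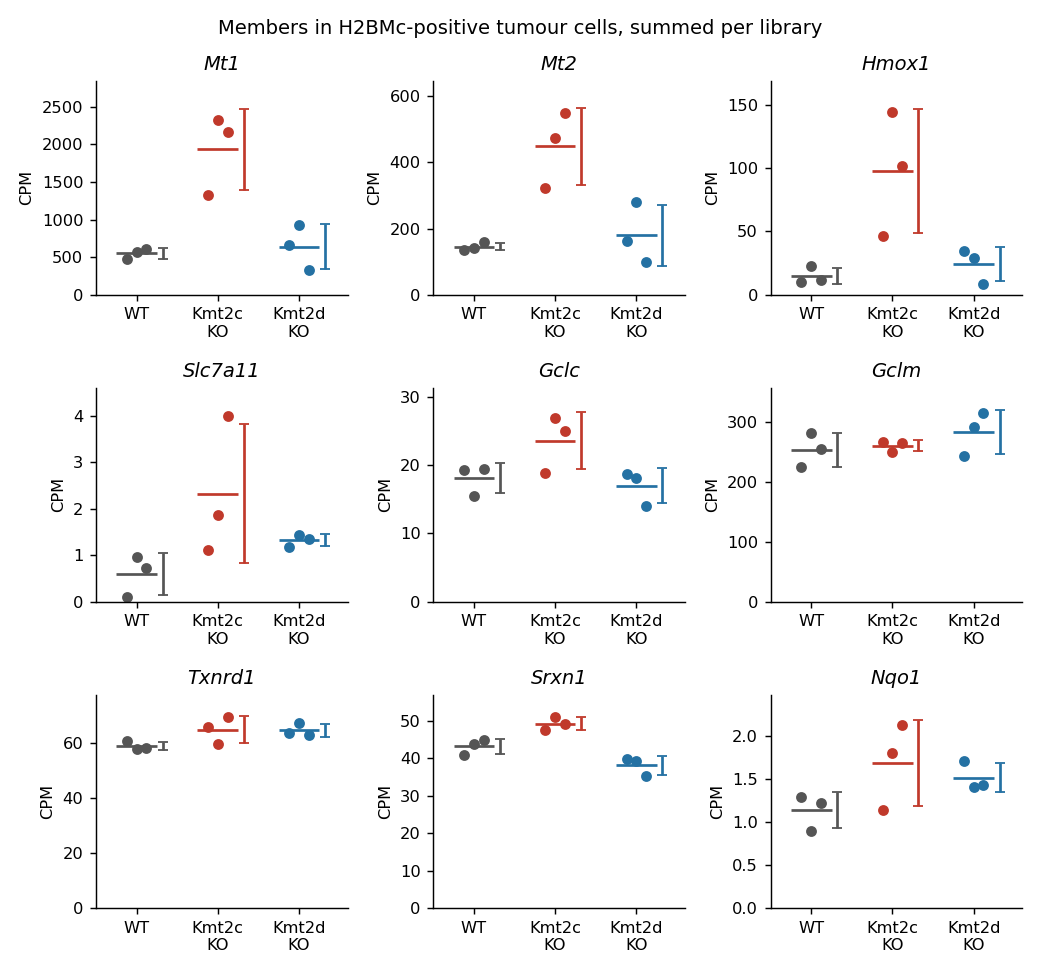
Levels of the 9 genes in H2BMc-positive tumour cells, in CPM (vertical axis, from 0), with 1 point per library, a line at the group mean and a bar of ± 1 SD (n = 3 libraries per group). All Kmt2c KO libraries lie above all WT libraries for Mt1, Mt2, Hmox1, Slc7a11 and Srxn1.

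Mt1 (chromosome 8, 94178883 to 94180327) was read at 475, 562 and 615 CPM in WT libraries 1 to 3, at 1321, 2321 and 2166 in Kmt2c KO and at 664, 927 and 332 in Kmt2d KO. Every Kmt2c KO library was above every library of both other groups, while Kmt2d KO libraries lay on either side of the WT range. The WT mean was 551 ± 70.8 CPM (SD, n = 3), the Kmt2c KO mean 1936 ± 538 and the Kmt2d KO mean 641 ± 298. The log2 fold change was 1.81 ± 0.33 (SE; edgeR adjusted p = 0.00551) for Kmt2c KO and 0.18 ± 0.32 (edgeR adjusted p = 0.82) for Kmt2d KO against WT.

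Mt2 (chromosome 8, 94172618 to 94173567), the neighbouring metallothionein gene, was also lowest in Kmt2d KO library 3. It was at 136, 142 and 159 CPM in WT, 323, 472 and 549 in Kmt2c KO and 161, 279 and 98.8 in Kmt2d KO. Kmt2c KO did not overlap either other group, and the log2 fold change against WT was 1.61 ± 0.31 (edgeR adjusted p = 0.00741). Kmt2d KO library 2 was the highest of its group for both metallothioneins, and without it the log2 fold changes of Kmt2d KO against WT were -0.17 for Mt1 and -0.19 for Mt2, against 0.18 and 0.27 with it.

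The metallothioneins were unevenly spread over cells. With each cell thinned to 3000 UMIs, 53.1% to 59.4% of WT, 67.8% to 71.2% of Kmt2c KO and 46.9% to 69.5% of Kmt2d KO tumour cells held an Mt1 UMI (85.6% to 92.5%, 85.6% to 90.8% and 78.3% to 89.8% without thinning). For Mt2 the thinned shares were 22.4% to 26.2%, 44.1% to 52.5% and 20.0% to 41.4%. Thinned shares of both genes in Kmt2c KO lay above all of WT. The 10% of cells with most Mt1 UMIs, without thinning, held 44.6% to 61.0% of them in WT and 64.2% to 68.0% in Kmt2c KO libraries. This share depends on depth, and median depth was 13729 to 24081 UMIs in WT and 8661 to 11824 in Kmt2c KO tumour cells. At matched depth, Mt1 was seen in 67.6% to 85.0% of the cells with an Mt2 UMI and in 41.8% to 61.0% of those without, and the first share was the higher in each of the 9 libraries.

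Hmox1 (chromosome 8, 75093618 to 75100593) encodes heme oxygenase 1, which breaks heme down to biliverdin, iron and carbon monoxide. It was at 10.0, 22.3 and 12.1 CPM in WT, 46.3, 144 and 102 in Kmt2c KO and 34.8, 29.1 and 8.82 in Kmt2d KO. Kmt2c KO libraries were above all others, and Kmt2d KO overlapped WT because library 3 was below it. The log2 fold change was 2.69 ± 0.55 (edgeR adjusted p = 0.00925) for Kmt2c KO and 0.64 ± 0.54 (edgeR adjusted p = 0.604) for Kmt2d KO against WT. Hmox1 was held by few cells: 3.10% to 4.37% of WT and 5.65% to 14.5% of Kmt2c KO cells had a UMI at 3000 UMIs per cell (13.4% to 19.1% and 12% to 27.8% without thinning). The 10% of cells with most Hmox1 UMIs, without thinning, held 86.8% to 95.6% of them in Kmt2c KO libraries and 66.0% to 90.1% in WT. This share too depends on depth and on the level of the gene, and in WT it rested on 100, 322 and 118 UMIs.

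Macrophages are a known source of Hmox1, so the macrophage markers in the tumour cells were read beside it. The 7 macrophage genes summed to 7.87 to 17.6 CPM in WT, 13.0 to 30.1 in Kmt2c KO and 7.13 to 21.0 in Kmt2d KO tumour cells, against 11645 in macrophage-like cells. No macrophage marker was at 0 over all tumour cells, and the highest was C1qb at 4.30. The part of these few macrophage reads in the Hmox1 difference was not tested.

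Slc7a11 (chromosome 3, 50364936 to 50499087), the light chain of the cystine and glutamate exchanger, rested on few UMIs, 1, 14 and 7 in WT, 38, 57 and 120 in Kmt2c KO and 29, 44 and 65 in Kmt2d KO. That is 0.100, 0.971 and 0.72 CPM in WT, 1.12, 1.87 and 3.99 in Kmt2c KO and 1.19, 1.44 and 1.36 in Kmt2d KO. Neither knockout overlapped WT, the log2 fold change was 1.85 ± 0.57 (edgeR adjusted p = 0.0468) for Kmt2c KO and 1.04 ± 0.60 (edgeR adjusted p = 0.411) for Kmt2d KO. The call for Kmt2c KO was kept in 10 of 20 alternative settings, with edgeR or DESeq2 adjusted p from 0.00719 to 0.181. It was lost without any 1 WT library, Kmt2c KO library 2 or 3, or Kmt2d KO library 1 or 3 (0.0555 to 0.154). In these fits the log2 fold change ran from 1.27 without Kmt2c KO library 3 to 2.50 without WT library 2. At 3000 UMIs per cell Slc7a11 was found in 0% to 0.282% of WT and 0.247% to 1.05% of Kmt2c KO cells (0.223% to 1.94% and 0.874% to 3.21% without thinning).

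Gclc (chromosome 9, 77754535 to 77794489) and Gclm (chromosome 3, 122245487 to 122267215) encode the catalytic and the modifier subunit of glutamate-cysteine ligase, the rate-limiting enzyme of glutathione synthesis. Gclc was at 19.3, 15.5 and 19.4 CPM in WT, 18.9, 26.9 and 25.1 in Kmt2c KO and 18.8, 18.2 and 14.1 in Kmt2d KO. The groups overlapped between WT and each knockout, and the log2 fold change of Kmt2c KO against WT was 0.39 ± 0.17 (edgeR adjusted p = 0.129). Gclm was at 225 to 282 CPM in WT, 250 to 267 in Kmt2c KO and 242 to 315 in Kmt2d KO, with a log2 fold change of 0.03 ± 0.11 (edgeR adjusted p = 0.857) for Kmt2c KO. The richest 10% of cells held 29.2% to 36.3% of its UMIs over the 9 libraries, a share that depends on depth and on the level of the gene.

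Txnrd1 (chromosome 10, 82833951 to 82897724), the cytosolic thioredoxin reductase, was at 60.6, 57.9 and 58.1 CPM in WT, 65.6, 59.5 and 69.4 in Kmt2c KO and 63.7, 67.1 and 62.9 in Kmt2d KO. The Kmt2d KO libraries lay just above the WT range, and the log2 fold changes were 0.14 ± 0.07 (edgeR adjusted p = 0.203) for Kmt2c KO and 0.10 ± 0.07 (edgeR adjusted p = 0.501) for Kmt2d KO. Srxn1 (chromosome 2, 152105524 to 152111376), sulfiredoxin, restores over-oxidised peroxiredoxins. It was at 40.8, 43.6 and 44.9 in WT, 47.4, 51.0 and 49.2 in Kmt2c KO and 39.8, 39.3 and 35.2 in Kmt2d KO. The 3 groups of Srxn1 did not overlap, with Kmt2c KO highest and Kmt2d KO lowest, but the log2 fold changes were 0.19 ± 0.09 (edgeR adjusted p = 0.166) and -0.21 ± 0.09 (edgeR adjusted p = 0.258). Nqo1 (chromosome 8, 107388225 to 107403205), a quinone reductase used as a marker of NRF2 activity, was at 0.902 to 1.30 CPM in WT, 1.15 to 2.13 in Kmt2c KO and 1.41 to 1.72 in Kmt2d KO, and neither knockout passed.

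Among the 9 genes, 0 were called for Kmt2d KO against WT by edgeR or by DESeq2, and 1 (Srxn1) had an unadjusted edgeR p under 0.05. Over all genes, 2412 of 14089 had such an unadjusted p. The log2 fold changes of the 9 genes ran from -0.21 to 1.04. With Kmt2d KO set directly against Kmt2c KO, only 0.0781% of all genes were called, and 2506 of 14089 had an unadjusted edgeR p under 0.05. Of the 9 genes, 0 were called by edgeR and 5 (Mt1, Mt2, Hmox1, Gclc and Srxn1) passed that unadjusted cut. These differences were -1.63 ± 0.32 for Mt1 (edgeR adjusted p = 0.0775), -1.35 ± 0.31 for Mt2 (0.0859), -2.05 ± 0.52 for Hmox1 (0.0977) and -0.40 ± 0.09 for Srxn1 (0.0788). DESeq2 called these 4, where it called 4.06% of the genes with an adjusted p. Without Kmt2d KO library 2 edgeR called 5, the same 4 and Gclc, where 19.7% of all genes were called.

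**Figure D2:**
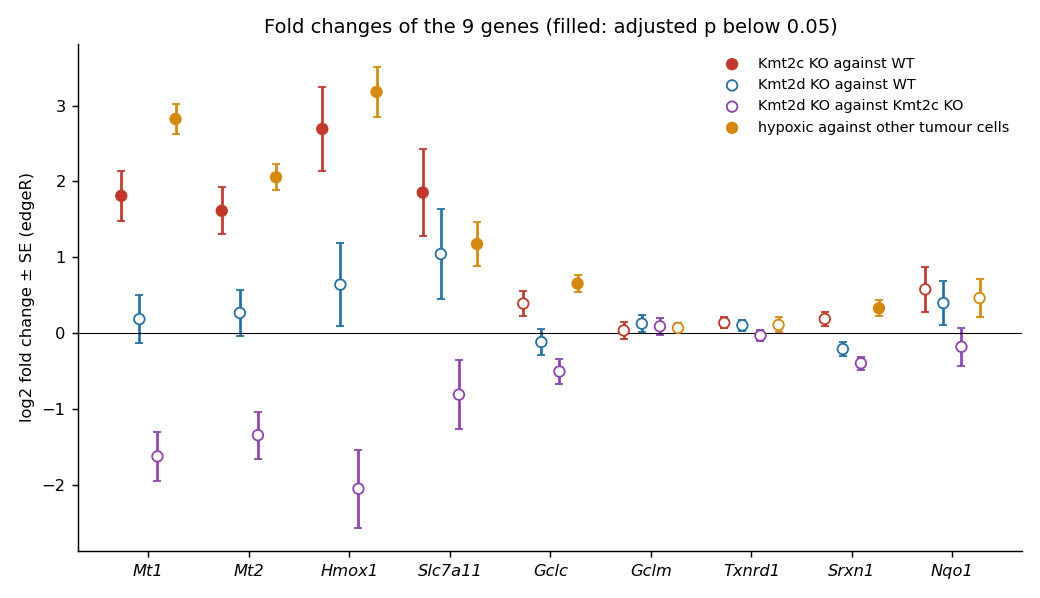
The log2 fold change of each gene with its standard error from edgeR (vertical axis), for 3 comparisons between groups of tumours and for hypoxic against other tumour cells. Filled points have an adjusted p below 0.05: Mt1, Mt2, Hmox1 and Slc7a11 for Kmt2c KO against WT, and these with Gclc and Srxn1 for hypoxic cells.

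The tumours also differed in how many cells had a high hypoxia score, and this moved with the metallothioneins. With the score of all tumour cells pooled, the top 15% began at 8.97 UMIs per 10000. Above it lay 4.91%, 7.46% and 6.65% of the cells of WT libraries, 17.3%, 29.4% and 22.3% of Kmt2c KO and 10.8%, 11.6% and 3.48% of Kmt2d KO. The fold changes were therefore read again with high-score cells left out, first by the cut of each library. That cut left cells with scores up to 3.56, 4.15 and 3.41 in WT libraries and up to 10.9, 27.1 and 15.8 in Kmt2c KO. This first set thus still held cells of higher score in Kmt2c KO than in WT. Without the hypoxic cells of each library (the top 15% of its own score), Kmt2c KO against WT was 1.29 ± 0.25 for Mt1 (edgeR adjusted p = 0.00828), 1.28 ± 0.30 for Mt2 (0.0162), 2.41 ± 0.52 for Hmox1 (0.0127) and 1.64 for Slc7a11 (0.0997). Outside the pooled top 15%, Kmt2c KO against WT was 0.86 ± 0.23 for Mt1 (edgeR adjusted p = 0.0299), 1.06 ± 0.29 for Mt2 (0.0313), 1.72 ± 0.50 for Hmox1 (0.0382) and 1.39 for Slc7a11 (0.143). In the cells below the median score of 1.85, Mt1 was at 0.63 ± 0.22 and not called (0.0701), while Mt2 at 1.07 ± 0.29 (0.0268) and Hmox1 at 1.57 ± 0.34 (0.0121) still were. Over all genes, edgeR called 2400 of 13845, 2380 of 13580 and 2301 of 12629 in these sets, in order. The log2 fold change of Mt1 was thus 1.81 over all tumour cells and 0.63 in low-score cells, and the settings with the pooled top 15% and the median score were chosen after the data were seen.

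Within each tumour, hypoxic cells had more Mt1, Mt2 and Hmox1 than the other tumour cells in 9 of 9 libraries, and 4.64% of all genes tested were higher in every library. By edgeR with the library as a block, 6 of the 9 genes were called, all higher, where 18.3% of the 12469 genes tested were called higher (36.3% in either direction). The 6 were Mt1, Mt2, Hmox1, Slc7a11, Gclc and Srxn1, and Gclm, Txnrd1 and Nqo1 did not pass. The median log2 difference was 0.65 over the 9 genes and -0.03 over all genes. Median depth was 8360 to 20746 UMIs in hypoxic and 8705 to 24701 in other cells of a library.

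Mt1 was at 1110, 2454 and 1988 CPM in hypoxic against 364, 292 and 404 in other cells of WT libraries. The values were 5792, 10907 and 8114 against 605, 970 and 1071 in Kmt2c KO, and 2727, 3317 and 850 against 342, 511 and 257 in Kmt2d KO. Within each group, every hypoxic value was above every value of the other cells. The log2 difference was 2.82 ± 0.19 (edgeR adjusted p = 2.09e-08), and 15 of 15 alternative settings called it. Mt2 differed by 2.06 ± 0.17 (edgeR adjusted p = 2.36e-07), from 85.2 to 366 CPM in other cells and from 192 to 1788 in hypoxic cells.

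Hmox1 was at 17.5, 105 and 25.4 CPM in hypoxic cells of WT against 8.70, 10.5 and 10.0 in other cells. It was at 254, 567 and 283 against 13.1, 77.5 and 68.2 in Kmt2c KO, and at 196, 155 and 19.8 against 9.69, 7.12 and 7.24 in Kmt2d KO. The hypoxic cells were higher in each library, by as little as 17.5 against 8.70 in WT library 1. The log2 difference of 3.18 ± 0.33 (edgeR adjusted p = 3.57e-06) was the largest of the 9 genes. Its level in the other tumour cells was much higher in Kmt2c KO libraries 2 and 3 than in the remaining 7 libraries, where it was 13.1 or below.

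The glutathione and thioredoxin genes differed less. Slc7a11 was higher in hypoxic cells of 7 of 9 libraries (log2 difference 1.17 ± 0.29, edgeR adjusted p = 0.00518), with 0 to 7.91 CPM there and 0.118 to 3.27 in other cells. Gclc was higher in 8 of 9, with 15 to 38.1 in hypoxic and 13.9 to 25.6 in other cells (0.65 ± 0.11, edgeR adjusted p = 2.68e-04), and WT library 1 was the exception at 18.9 against 19.4. Srxn1 was higher in 7 of 9 (0.33 ± 0.10, edgeR adjusted p = 0.0197), and this call was kept in 10 of 15 alternative settings and lost, among others, without Kmt2c KO library 1 (edgeR adjusted p = 0.0672) or 3 (0.0565). Gclm (0.07 ± 0.07) and Txnrd1 (0.11 ± 0.10) were each higher in 4 of 9 libraries and Nqo1 (0.46 ± 0.26) in 6 of 9.

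**Figure D3:**
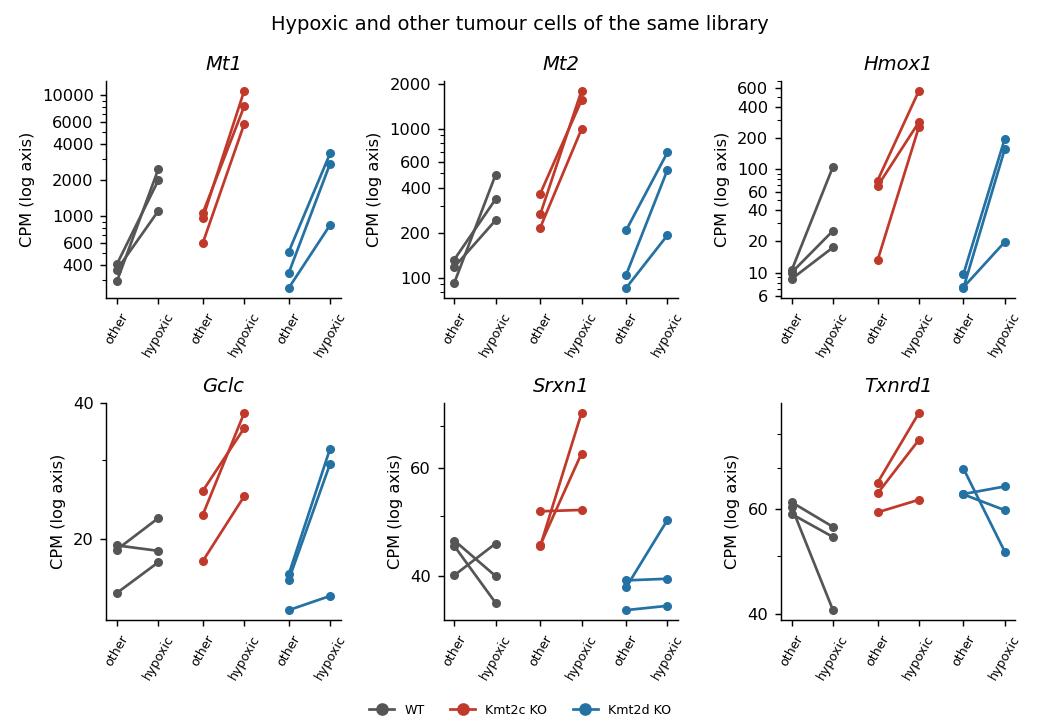
Levels of 6 genes in CPM (vertical log axis) in the other and the hypoxic tumour cells, with a line joining both values of a library. The hypoxic value is the higher for Mt1, Mt2 and Hmox1 in all 9 libraries, and for Txnrd1 in 3 of 3 Kmt2c KO and 0 of 3 WT libraries.

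The same share of cells was called hypoxic in each library, so hypoxic cells of different groups did not have the same score. Their median score was 6.21, 9.0 and 7.06 in WT, 24.2, 49.4 and 31.3 in Kmt2c KO and 12.6, 14.3 and 5.29 in Kmt2d KO. Within WT, 3 of 9 genes were called (Mt1 2.39 ± 0.24, Mt2 1.68 ± 0.23 and Hmox1 2.36 ± 0.65), where 4.25% of all genes were. Within Kmt2c KO 7 were called, with Slc7a11, Gclc, Txnrd1 and Srxn1 besides, where 40.3% of all genes were, and within Kmt2d KO 4 were, with Gclc besides, where 8.20% were. These shares over all genes moved when a library of the group was left out, from 530 genes to as few as 123 without WT library 2, and from 1022 genes to as few as 390 without Kmt2d KO library 1. Within Kmt2c KO the count went from 5026 genes to as few as 3259 when a library was left out. The difference between these differences was tested directly. For Kmt2c KO against WT only Txnrd1 passed, at 0.73 ± 0.16 (edgeR adjusted p = 0.0301), where 2.49% of all genes did, with Srxn1 at 0.72 ± 0.19 (0.0518) and Mt1 at 1.08 ± 0.32 (0.0716). Txnrd1 was at 55.9, 40.6 and 53.8 CPM in hypoxic cells of WT against 61.5, 60.3 and 58.7 in the others, and at 78.1, 62.1 and 86.6 against 63.6, 59.1 and 66.3 in Kmt2c KO. When hypoxic cells were taken at the pooled score instead, 0 of the 9 genes passed by edgeR, with the term at 0.89 for Txnrd1 (edgeR adjusted p = 0.242) and -0.08 for Mt1. For Kmt2d KO against WT 0 of 9 passed by edgeR, and 0 had an unadjusted p under 0.05. Of all 12469 genes 0.00802% passed, and 515 had such an unadjusted p.

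The groups were also set side by side by step of the hypoxia score, in libraries with at least 20 cells in a step. The cells of a step were not matched in depth. Median depth per tumour cell was 13729 to 24081 UMIs in WT, 8661 to 11824 in Kmt2c KO and 11222 to 14789 in Kmt2d KO libraries. The score of a cell is coarser at low depth, here and in the sets cut by score above. The part of this in the values was not tested. In cells with a score below 1, Mt1 averaged 304 CPM over WT (267 to 338), 522 over Kmt2c KO (391 to 751) and 328 over Kmt2d KO libraries (251 to 438). Between 2 and 5 the averages were 411, 723 and 417. Between 5 and 10 they were 587 over 2 WT libraries (529 to 645), 1408 over Kmt2c KO (1044 to 1977) and 808 over Kmt2d KO (533 to 956). Above 40, where only WT library 2 and Kmt2d KO library 2 of their groups had at least 20 such cells, Mt1 was at 10431 in the WT library, at 10707 to 13458 in Kmt2c KO and at 10798 in the Kmt2d KO library. Without Kmt2d KO library 2, which stands apart over all genes, that group has no value there. No WT library had enough cells between 20 and 40, and only 1 did between 10 and 20. In the steps that were filled, the Kmt2c KO average of Mt1 was the highest. Mt2 averaged 94.6, 225 and 124 below a score of 1 and stood at 1814, 2076 and 2041 above 40. Hmox1 averaged 8.77, 22.8 and 7.23 below 1, but Kmt2c KO library 1 was at 6.64 there, below all WT libraries.

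**Figure D4:**
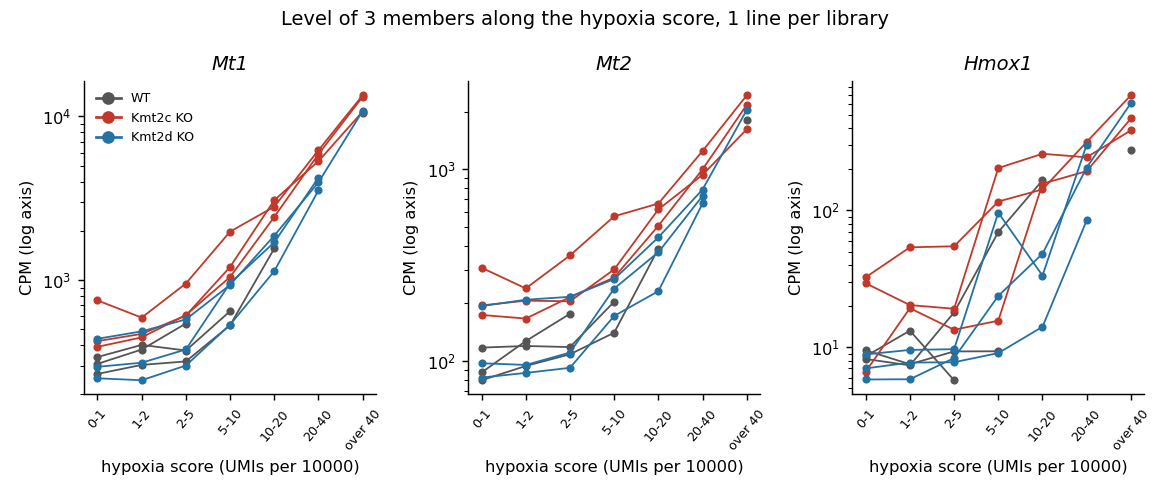
Levels of Mt1, Mt2 and Hmox1 in CPM (vertical log axis) by step of the hypoxia score (horizontal axis, UMIs per 10000), with a line per library and only steps with at least 20 cells. The levels are higher at high than at low scores, though single lines dip between steps, and above 40, where WT and Kmt2d KO have 1 library each, Mt1 is between 10431 and 13458 and Hmox1 between 275 and 694.

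The stromal cells showed which of the genes were high outside the tumour cells. Macrophage-like cells had more Slc7a11 and Hmox1 than tumour cells, and less of both metallothioneins, Srxn1 and Gclm. Over 5 classes against tumour cells, 27 of 40 tests passed by edgeR with the library as a block, while of all 9779 genes 67.1% passed in macrophage-like, 64.6% in endothelial-like, 61.2% in fibroblast-marker, 48.6% in dendritic-like and 44.3% in T and NK-like cells. Nqo1 was too low to test. The 27 include the calls of Slc7a11 in macrophage-like and dendritic-like cells, which add no support beyond its levels, as told below. The T and NK-like tests rest on 3 libraries, none of them WT, as the class held 31 WT cells in all. The median log2 difference of all genes from tumour cells was -0.33 in dendritic-like, -0.25 in T and NK-like, 0.14 in fibroblast-marker, -0.12 in endothelial-like and -0.11 in macrophage-like cells, and differences of the genes below are to be read against it. The class with fibroblast markers cannot be told apart from tumour cells without reporter reads, since 52.0% of tumour cells held a Pdgfra UMI and the fibroblast list summed to 209 to 446 CPM in tumour cells.

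Slc7a11 was at 8.17, 55.3 and 4.13 CPM in macrophage-like cells of WT, at 22.1, 32.2 and 30.6 in Kmt2c KO and at 111, 25 and 0 in Kmt2d KO, from 66 UMIs in all. In 8 of 9 libraries this was above the tumour cells of the same library, and the log2 difference was 4.40 ± 0.44 (edgeR adjusted p = 1.5e-11). Slc7a11 passed the low-count filter of this fit only through macrophage-like and dendritic-like sums, where it was high. Tumour-cell sums were at 3.99 CPM or below and those of the remaining classes at 6.70 or below. Its class tests thus add no support beyond these levels. Dendritic-like cells, in 4 libraries, were also higher than tumour cells, by 3.37 ± 0.85 (edgeR adjusted p = 0.00103), but on 8 UMIs in all, and the call was lost in 2 of 11 alternative settings, without WT library 2 (2.45, edgeR adjusted p = 0.058) and with a stricter gate (0.152). Endothelial-like cells (-1.75 ± 1.31) did not pass, and T and NK-like cells held no Slc7a11 UMI in 3 libraries. At 1000 UMIs per cell, 2.99% of macrophage-like and 3.59% of dendritic-like cells had an Slc7a11 UMI, against 0.174% of tumour cells (5.55%, 6.11% and 1.76% without thinning, at median depths of 2233, 2553 and 11694 UMIs). At the same depth it was found in 0 of 409 endothelial-like cells, which allows a share of up to 0.733%, and in 0 of 221 T and NK-like cells, which allows up to 1.36%. These limits are on cells with a UMI at this depth and not on cells that express the gene, and 0.239% of endothelial-like cells had a UMI without thinning. Shares by class, here and below, pool the cells of all libraries and groups, and the mix differed. Kmt2c KO gave 413 of 703 macrophage-like, 113 of 419 endothelial-like, 202 of 292 T and NK-like and 8277 of 16707 tumour cells.

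Hmox1 was at 106, 190 and 74.3 CPM in macrophage-like cells of WT, 44.1, 332 and 104 in Kmt2c KO and 207, 89.9 and 21.6 in Kmt2d KO. The macrophage-like sum was above the tumour-cell sum of the same library in 8 of 9, with Kmt2c KO library 1 just below (44.1 against 46.3). The log2 difference was 1.69 ± 0.29 (edgeR adjusted p = 2.66e-06). Endothelial-like cells followed at 22.6 to 89.4 (0.78 ± 0.33 against tumour cells, edgeR adjusted p = 0.0338), a call kept in 6 of 11 alternative settings and lost without any 1 WT library or Kmt2d KO library 1 or 3 (0.0572 to 0.238). Dendritic-like (-3.23 ± 1.16) and T and NK-like cells (-3.80 ± 1.12) were lower than tumour cells, on 3 Hmox1 UMIs in each class, all in Kmt2c KO library 2. Both calls were lost without that library (edgeR adjusted p = 0.0764 and 0.129), and the dendritic call also with a stricter gate (0.132). At 1000 UMIs per cell a Hmox1 UMI was found in 7.24% of macrophage-like, 3.07% of tumour, 2.69% of endothelial-like and 0.905% of T and NK-like cells (17.5%, 16.1%, 20.5% and 1.03% without thinning).

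The metallothioneins were lower in macrophage-like and endothelial-like cells than in the tumour cells taken as a whole. Mt1 was at 387 to 491 CPM in macrophage-like cells of WT, 184 to 364 in Kmt2c KO and 280 to 440 in Kmt2d KO, so that the Kmt2c KO libraries were not the high ones there. All tumour cells were at 475 to 615, 1321 to 2321 and 332 to 927. The tumour cells not called hypoxic were at 292 to 404, 605 to 1071 and 257 to 511. In WT and Kmt2d KO this last range overlapped that of macrophage-like cells, and the difference from these cells alone was not tested. Mt1 fell from tumour cells to endothelial-like cells by 1.29 on the log2 scale and to macrophage-like cells by 1.45, while the fibroblast-marker cells (-0.48 ± 0.28) did not pass. Endothelial-like and macrophage-like cells did not differ in Mt1 beyond their spread (-0.16 ± 0.32, edgeR adjusted p = 0.718), and neither did macrophage-like and dendritic-like cells (1.21 ± 0.56, edgeR adjusted p = 0.144). T and NK-like cells, at 54.9 to 164 CPM in 3 libraries of which none was WT, did not differ from dendritic-like cells beyond the spread (-0.88 ± 0.76, edgeR adjusted p = 0.514). Mt2 separated the classes more, with -1.83 ± 0.29 in endothelial-like and -3.13 ± 0.37 in macrophage-like cells, which differed from each other (-1.30 ± 0.46, edgeR adjusted p = 0.0163). An Mt1 UMI was found at 1000 UMIs per cell in 38.0% of tumour, 27.8% of fibroblast-marker, 17.8% of endothelial-like, 17.5% of macrophage-like and 8.14% of T and NK-like cells (86.5%, 63.5%, 43.2%, 35.1% and 12.3% without thinning). The share that free RNA of the droplets adds to these was not tested.

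Of the remaining genes, Srxn1 was lower than in tumour cells in 4 classes, from -1.06 ± 0.12 in fibroblast-marker to -1.83 ± 0.55 in dendritic-like cells, and T and NK-like cells did not pass (-0.87 ± 0.42). Gclm was lower in all but the endothelial-like class, which was at -0.20 ± 0.12, and its call in T and NK-like cells was lost without Kmt2c KO library 2 (edgeR adjusted p = 0.0543). Txnrd1 was higher in endothelial-like (0.43 ± 0.13) and dendritic-like cells (0.91 ± 0.26) and lower in fibroblast-marker cells (-0.30 ± 0.11). The dendritic call of Txnrd1 was lost without Kmt2c KO library 2 (0.49, edgeR adjusted p = 0.258) and the endothelial call without WT library 3 (0.31, edgeR adjusted p = 0.0544). Gclc was called in dendritic-like cells, where it was higher (1.20 ± 0.47, edgeR adjusted p = 0.0298), a call lost without WT library 3, Kmt2c KO library 3 or Kmt2d KO library 1 (0.0549 to 0.431), and with a stricter gate (0.44, edgeR adjusted p = 0.679). In fibroblast-marker cells Gclc was at -0.35 ± 0.16 (edgeR adjusted p = 0.0631) and passed, as lower, in 5 of 11 alternative settings (-0.45 to -0.33 over all 11).

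**Figure D5:**
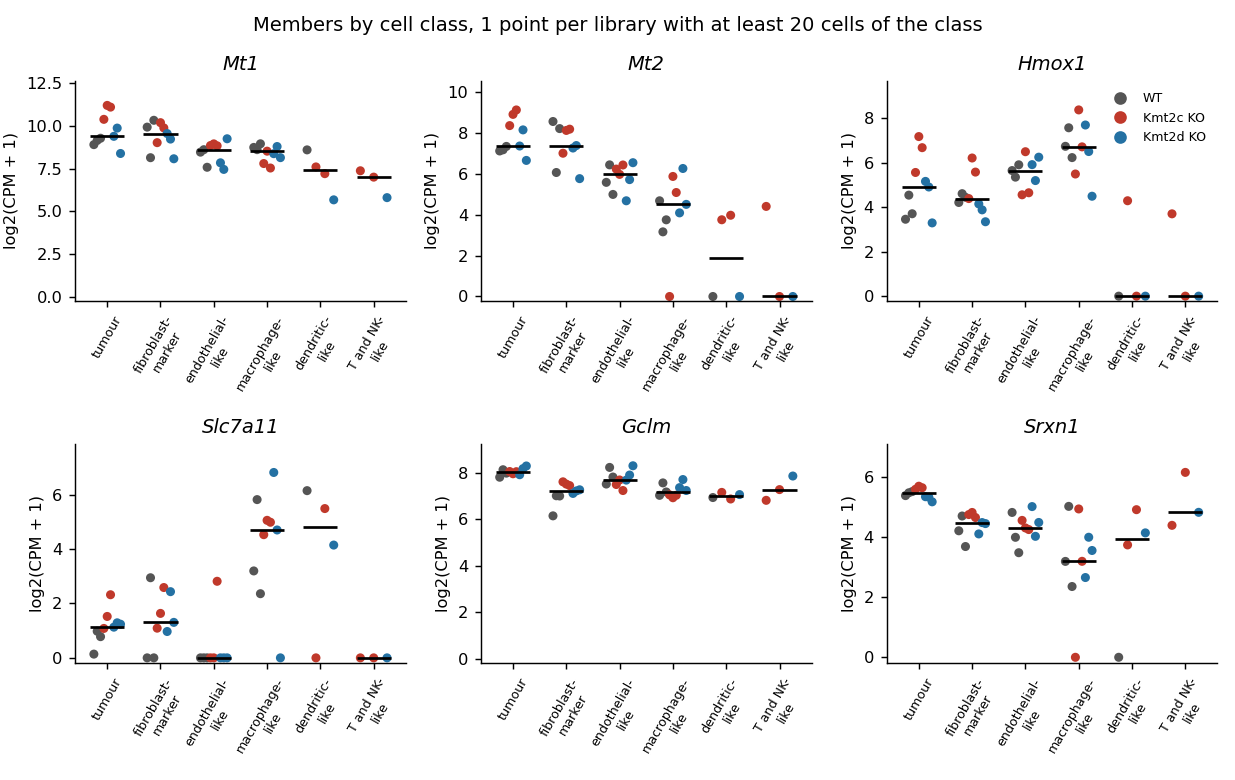
Levels of 6 genes by cell class, as log2(CPM + 1) on the vertical axis, with a point per library that held at least 20 cells of the class and a line at the median. Slc7a11 is highest in macrophage-like and dendritic-like cells, Hmox1 in macrophage-like cells and the metallothioneins in tumour and fibroblast-marker cells.

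The genotype of the tumour cells was tested within macrophage-like and endothelial-like cells and not within the other stromal classes. In macrophage-like cells 4 of the genes (Mt1, Hmox1, Gclm and Txnrd1) were abundant enough to test, and 0 passed by edgeR for Kmt2c KO against WT (7.10% of all genes did) or for Kmt2d KO against WT (0.122% did). At an unadjusted p under 0.05 there was 1 in each, Mt1 and Txnrd1, where 794 and 294 of all 4087 genes were. Mt1 was lower in Kmt2c KO than in WT (log2 -1.065 to -0.428 over 11 alternative settings). Txnrd1 was higher in Kmt2d KO than in WT (0.540 to 1.083 over 11). In endothelial-like cells 5 were tested, Mt2 besides, and 0 passed for either knockout (6.43% and 0.0376% of all genes did). At an unadjusted p under 0.05 there were 0, where 1142 and 534 of all 5319 genes were. Without a library, the calls over all genes for Kmt2c KO went from 290 to between 122 (without Kmt2c KO library 3) and 377 in macrophage-like cells, and from 342 to between 83 (without Kmt2c KO library 3) and 668 (without Kmt2d KO library 2) in endothelial-like cells. For Kmt2d KO they went from 5 to between 1 and 13 in macrophage-like and from 2 to between 0 and 21 in endothelial-like cells. The log2 fold changes of the 5 genes tested in endothelial-like cells ran from -0.38 to 0.63 for Kmt2c KO. Whether the effect in tumour cells differed from that in stromal cells was not tested.

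Other genes of these pathways, from lists chosen with earlier results known, were read in the same fits. For Kmt2c KO against WT, the counts of each list stand against 18.7% of all genes called, 9.57% higher, and those of the glutathione genes were below this share. Of 10 regulators tested, 3 rose and 1 fell: Keap1 (0.67 ± 0.10), Maff (0.83 ± 0.24) and Mafg (0.39 ± 0.10), small MAF partners of NRF2 and BACH1, rose, and Nr3c1, the glucocorticoid receptor, fell by 0.25. Nfe2l2 itself was at 0.23 ± 0.09 (edgeR adjusted p = 0.0997). Of 15 glutathione genes 1 rose and 1 fell. Of 16 thioredoxin, peroxiredoxin and superoxide genes 5 rose and 5 fell, among them the superoxide dismutases Sod3 (1.90 ± 0.46) and Sod1 (0.71 ± 0.16) and the peroxiredoxins Prdx3 (-0.60 ± 0.14) and Prdx6 (-0.56 ± 0.12). Of 10 heme and iron genes 2 rose, the ferritin heavy chain Fth1 (0.68 ± 0.13) and the biliverdin reductase Blvrb (0.45 ± 0.09), and 1 fell, Fech (-0.41 ± 0.09).

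In the same comparison, with 18.7% of all genes called, the zinc and copper genes were near that share. Of 11 tested 1 rose, the copper pump gene Atp7a (0.43 ± 0.11), and 1 fell, Slc39a7 (-0.42 ± 0.11), and of 7 NADPH genes 1 rose and 1 fell. Of 9 integrated stress response genes 4 rose, led by Trib3 (1.90 ± 0.41), Cebpb (1.53 ± 0.21) and the glutathione-degrading enzyme gene Chac1 (1.01 ± 0.29), and Phgdh fell by 0.61. Of 12 dissociation and immediate early genes 3 rose (Ier3 1.50 ± 0.36, Junb 0.95 ± 0.28 and Dnajb1 0.80 ± 0.18). The part of cell dissociation in the metallothionein values was not tested. Over these 8 lists only Gstm2 was called for Kmt2d KO against WT, where it fell by 0.42.

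In hypoxic against other tumour cells, where 18.3% of all genes were called higher and 36.3% in either direction, 9 of 10 regulators rose, with Maff at 2.09 ± 0.13, Atf4 at 0.94 ± 0.12, Hif1a at 0.67 ± 0.10 and Mafg at 0.56 ± 0.08. Of 11 zinc and copper genes 4 rose and 1 fell, led by the zinc exporter gene Slc30a1 (1.07 ± 0.24), which like the metallothioneins is a target of MTF1, and the zinc importer gene Slc39a14 (0.54 ± 0.12). Of 10 heme and iron genes 2 rose, both ferritin chains (Ftl1 0.73 ± 0.12, Fth1 0.53 ± 0.10), and 2 fell, a count near the share of all genes called in either direction. Of 14 glutathione genes 4 rose, led by Slc3a2 (0.89 ± 0.11), the heavy chain that pairs with Slc7a11. Of 9 integrated stress response genes 7 rose and 1 fell, with Trib3 at 1.90 ± 0.12 and Chac1 at 1.75 ± 0.19. Of 16 thioredoxin, peroxiredoxin and superoxide genes 3 rose and 1 fell, of 7 NADPH genes 4 rose, and of 11 dissociation and immediate early genes 9 rose, led by Ier3 (2.77 ± 0.16). The median of the list was 0.52 for the regulators, 0.81 for the integrated stress response and 0.66 for the immediate early genes, against -0.03 over all genes.

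The genes whose levels over the 9 tumour-cell sums were most like each of 3 members were sought among 8659 or 8660 genes with a mean of at least 10 CPM, as a description without a test. For Mt1 they were Mt2 (Pearson r of log2 levels 0.989), Bnip3 (0.984), Nfil3 (0.982), Higd1a (0.982) and Sdc4 (0.980). For Hmox1 they were Vldlr (0.985), Ier3 (0.979), Bcl3 (0.978), Bnip3 (0.978) and Pfkl (0.975). For Slc7a11 they were Tgm2 (0.950), Cdc42ep2 (0.947), Rlim (0.934), Xlr (0.932) and Zfp1 (0.929). The 9 points share genotype, library and depth, and Bnip3 is in the hypoxia score.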

How the data were processed

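UMI counts per gene and cell barcode were used as deposited by the authors in 1 matrix for the series, which the submitters' processing notes credit to Cell Ranger 7.0.1 and mm10. Whether aggregation thinned the libraries to a common depth: not given in the sources used here. Libraries were 5′ single-cell libraries, and the group of each was read from its genotype letter (C for Kmt2c KO, D for Kmt2d KO and X, taken to be WT). The names do not give the replicate number of the labels.

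The study's limits on cells were used (over 500 and under 7500 genes, under 15% mitochondrial counts). A stromal class took cells with no H2BMc, Krt8 or Krt18 UMI, at least 2 markers and 3 UMIs of its list and more than 2 times the UMIs of every other list, and libraries with under 20 cells of a class were left out of its tests. No doublet caller was run, and leaving out the 5% of cells with most UMIs was an alternative. Sums per library were tested with edgeR 4.0.16 in R 4.3.3 (filterByExpr, TMM, glmQLFit and glmQLFTest), with all 9 libraries in each fit of genotype and with the library as a block within libraries. A gene was called where its p, adjusted by Benjamini-Hochberg over all genes of the contrast, was below 0.05. The standard error was the size of the log2 fold change divided by the square root of edgeR's F. DESeq2 1.42.0, RLE scaling, other filters, gates and scores, and leaving out each library were alternatives. The fit was tested on simulated data. Python 3.11.15 with numpy 2.4.6, scipy 1.17.1, pandas 2.3.3 and matplotlib 3.10.9 was used for the rest. Thinning drew UMIs of a cell without replacement. Limits from 3 counts cover counting error only.

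The 9 genes, the other lists and the tests were chosen with earlier results of these data known. Besides the 9 genes, up to 4 called genes of each list with the largest change in a comparison are named, and the 5 genes most like Mt1, Hmox1 and Slc7a11. Nfe2l2 was named after its value was seen. Tumours of a group are separate mice given the same cells, so p-values measure the spread between these tumours only.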

Additional observations from a re-analysis of the deposited data

Results flagged for a closer look

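The difference between hypoxic and other tumour cells was not the same in Kmt2c KO and WT tumours for Txnrd1, the thioredoxin reductase gene. The difference of the log2 differences was 0.73 ± 0.16 (edgeR adjusted p = 0.0301), with Txnrd1 higher in hypoxic cells of 3 of 3 Kmt2c KO and 0 of 3 WT libraries. In Kmt2d KO it was higher in 1 of 3. Nqo1 was also higher in 3 of 3 Kmt2c KO and 0 of 3 WT libraries, and in 3 of 3 Kmt2d KO libraries. It rested on few UMIs, with 0, 1 and 1 in the hypoxic cells of WT libraries 1 to 3. The share of all genes higher in 3 of 3 Kmt2c KO and 0 of 3 WT libraries was not counted. The term of Txnrd1 was also read in other settings. It passed in 5 of 11 alternative settings, with values from 0.48 to 0.89 and adjusted p from 0.0152 to 0.242. The hypoxic cells of Kmt2c KO tumours had higher hypoxia scores than those of WT tumours, and the part of this in the result was not tested. No group held more than 3 libraries, so no single library was tested for standing apart.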

How the results depend on the processing

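No paired analysis was possible because the library names do not carry the replicate numbers of the labels. Of the 9 genes in tumour cells, 4 were called for Kmt2c KO against WT, and 2 in cells below the median hypoxia score. In those low-score cells 2301 of all 12629 genes were called, 1173 of them higher. For Kmt2d KO against Kmt2c KO the count was 0, and 4 by DESeq2, 4 with no low-count filter and 0 to 5 when a library was left out (5 without Kmt2d KO library 2, 1 without Kmt2c KO library 1). The difference of the hypoxic term by genotype, 1 gene, was 0 at the pooled top 15%, 0 with the score from Vegfa, Egln3, Pdk1 and Ankrd37, and 0 to 3 without a library (0 without WT library 1, Kmt2c KO library 2 or Kmt2c KO library 3, 2 without WT library 2 or Kmt2d KO library 2, and 3 without Kmt2c KO library 1 or Kmt2d KO library 3). For macrophage-like cells it was 0 to 1 (1 without Kmt2c KO library 2, Mt1 as lower in Kmt2c KO than in WT). The other counts kept their side. Causes were not tested.

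Log2 values that changed sign in tumour cells and between classes included, for Kmt2c KO against WT in cells below the median score, -0.040 for Gclc, -0.010 for Gclm and -0.014 for Srxn1, and for Gclm -0.00072 in non-hypoxic cells and -0.0045 outside the pooled top 15%. For Kmt2d KO against WT, Hmox1 was -0.33 in non-hypoxic cells, -0.040 outside the pooled top 15% and -0.12 below the median score. For Kmt2d KO against Kmt2c KO, Txnrd1 was 0.045, 0.034 and 0.097 in these same 3 sets, Slc7a11 was 0.029 below the median score and Gclm -0.0051 without the 5% of cells with most UMIs. For hypoxic against other cells, the alternative score gave -0.29 for Gclm (adjusted p = 7.14e-04, called lower), -0.095 for Txnrd1 and -0.017 for Srxn1, and the top 30% gave -0.025 for Txnrd1. The term for Kmt2c KO against WT was -0.076 for Mt1 and -0.25 for Mt2 at the pooled top 15% and -0.43 for Slc7a11 with the alternative score. Leaving out a library gave -0.056 to 0.13 for Gclm in Kmt2c KO against WT, -0.17 to 0.50 for Mt1, -0.19 to 0.56 for Mt2 and -0.21 to 0.0085 for Gclc in Kmt2d KO against WT, and -0.18 to 1.12 for Gclc in T and NK-like cells. Within stromal classes, where none of these was called, macrophage-like Hmox1 ran from -0.42 to 1.11 for Kmt2c KO and -0.77 to 0.48 for Kmt2d KO over 11 alternatives. In endothelial-like cells Hmox1 ran from -1.08 to 0.30 for Kmt2c KO, and for Kmt2d KO Mt1 from -0.57 to 0.44, Mt2 from -0.54 to 0.61, Txnrd1 from -0.28 to 0.18, Gclm from -0.072 to 0.31 and Hmox1 from -0.0014 to 0.43.

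Over all genes, the calls for Kmt2c KO against WT were 2640, and 1256 to 4140 without a library. For Kmt2d KO against WT they were 320, and 682 by DESeq2, 516 with no low-count filter, 177 with only both groups fitted and 98 to 823 without a library. For Kmt2d KO against Kmt2c KO they were 11, and 565, 521 and 0 to 2797, with 2797 without Kmt2d KO library 2. For hypoxic cells they were 4521, and 2083 with cells thinned to 3000 UMIs, where Slc7a11 and Nqo1 were too low to test. Within WT they were 530, and 1432 at the pooled top 15% and 3351 with the alternative score, and within Kmt2d KO 1022, 1792 and 2853. The term for Kmt2c KO against WT called 311, and 5 at the pooled top 15%, 67 with the alternative score and 0 to 1009 without a library. Slc7a11 and Nqo1 in tumour cells, and all but the most abundant genes in stromal classes, rest on few UMIs, so a missed call there sets no limit on a difference.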
